A study of Mus musculus with 8 samples.

Results

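The interferon-induced transmembrane (IFITM) genes Ifitm1, Ifitm2, Ifitm3 and Ifitm6 were followed across microglia and tumor macrophages from mouse brain tumors. These 4 genes were selected by name from the 55450 genes of the count table, and the family was chosen because earlier results of these data showed it higher in the macrophages. The difference between the groups is therefore given as a description, with no test of the 4 genes. The table holds 7 genes named Ifitm, and all 4 members passed the filter on low counts.

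IFITM proteins are small membrane proteins of the CD225 family that hinder enveloped viruses from fusing with cell membranes. IFITM1 sits mainly at the cell surface, and IFITM2 and IFITM3 mainly on endosomes and lysosomes, as known chiefly from the human proteins. Interferons induce the family through JAK kinases, STAT factors and IRF9, which act on promoter elements called ISRE and GAS, but many cells also carry a basal level.

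The 8 libraries came from myeloid cells of wild-type (WT) mice that carried GL261 tumors, an isogenic mouse glioma line grown orthotopically in the brain. The 3 microglia libraries held sorted cells that were F4/80 and CD11b positive, CD45 low, Ly6C low or negative, Ly6G negative and CD49d low or negative. The 5 libraries of bone marrow derived macrophages (BMDM) held F4/80 and CD11b positive cells from the tumor that were CD45 positive, Ly6C low or negative, Ly6G negative and CD49d high. RNA was read by QuantSeq, which sequences the 3′ ends of polyadenylated transcripts. Strain, age and tumor stage are not given in the sources used here, nor whether each library stands for its own mouse. The p-values therefore cover the spread among the 8 libraries, which may be technical.

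Around the start sites given by RefSeq the members carry different interferon response letters. The windows below are the last 120 bases of RefSeq promoters on GRCm38.p6, shown because the pathway genes were examined beside the members. Capitals mark matches to the ISRE letters GAAANNGAAA or the GAS letters TTCNNNGAA, searched on both strands, and each line ends 50 bases after the start. The full 300-base windows were chr7:140967826-140968125 (plus strand) for Ifitm1, chr7:140955912-140956211 (minus) for Ifitm2, chr7:141010695-141010994 (minus) for Ifitm3 and chr7:141016843-141017142 (minus) for Ifitm6.
Ifitm1: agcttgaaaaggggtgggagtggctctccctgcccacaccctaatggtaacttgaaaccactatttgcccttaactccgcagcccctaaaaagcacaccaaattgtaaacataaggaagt
Ifitm2: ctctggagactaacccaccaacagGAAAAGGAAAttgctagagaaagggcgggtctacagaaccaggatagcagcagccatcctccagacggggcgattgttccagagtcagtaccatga
Ifitm3: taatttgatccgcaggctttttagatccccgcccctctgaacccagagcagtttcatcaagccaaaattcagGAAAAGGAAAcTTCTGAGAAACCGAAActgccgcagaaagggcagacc
Ifitm6: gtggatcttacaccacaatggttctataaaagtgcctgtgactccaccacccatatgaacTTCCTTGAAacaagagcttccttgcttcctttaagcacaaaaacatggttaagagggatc

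Ifitm3 held 2 ISRE matches and 1 GAS match whose end overlaps the second ISRE match, all within the first bases after the start, where the start is base 0. The GAS match ran from base 13 to 21 and the overlapping ISRE match from base 19 to 28. Ifitm2 held the same 10 letters as the first Ifitm3 match, at bases -46 to -37 before its start. Ifitm6 held a GAS match alone, at bases -10 to -2, and the 300-base window of Ifitm1 held neither. Among 32851 mouse promoters of the same length, 3.44% held an ISRE match and 8.30% a GAS match. Counted per gene, 3.99% of 27025 genes with a promoter held an ISRE match and 9.55% a GAS match. Of 19 type I interferon-stimulated genes with a promoter entry, 12 held an ISRE match. A match describes letters and is no evidence of binding, and the absence of a match concerns this window alone. For Ifitm2 and Ifitm3 the RefSeq start lay 26 bases from the single annotated GENCODE start. Ifitm1 and Ifitm6 each have 3 annotated transcripts, and their RefSeq starts lay 855 and 1032 bases downstream of the outermost start, 36 and 16 bases from the nearest. The promoters of the outer starts were not searched, and which start these cells use was not measured.

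The members form 1 cluster on chromosome 7, spanning 63.1 kb by GENCODE M21 (GRCm38, the mm10 build). Ifitm2 lies on the minus strand at chr7:140954837-140955987 with 655 exon bases, and Ifitm1 on the plus strand at chr7:140967221-140969825 with 1094. Ifitm3 lies on the minus strand at chr7:141009586-141010770 with 678 exon bases, and Ifitm6 on the minus strand at chr7:141015699-141017924 with 905. The coding sequences of Ifitm1 and Ifitm2 were identical at 80.3% of aligned bases, those of Ifitm1 and Ifitm3 at 81.1% and those of Ifitm2 and Ifitm3 at 79.9%. Ifitm6 stood farther from the other members, at 66.5% to 68.2%.

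Because paralogs can exchange reads, windows as long as the 75-base reads were compared over the last 500 transcript bases. None of 433 windows of Ifitm6 recurred in another gene, and 0.939% of those of Ifitm3 and 1.41% of those of Ifitm1 did. For Ifitm2 the share was 32.6%, all with the gene models Gm11951, Gm2840, Gm45308, Gm45717 and Gm8865 and none with another member. With 35-base windows, which stand for shorter, trimmed reads, the shares were 21.9% for Ifitm1, 49.1% for Ifitm2, 24.5% for Ifitm3 and 0 of 473 windows for Ifitm6. At that length Ifitm1, Ifitm2 and Ifitm3 also shared windows with each other and with Ifitm7. Gm45717, a model on the same strand, shares 268 of the 655 exon bases of Ifitm2 and was listed at 0 in every library. The sources used here do not give how reads in shared or overlapping exons were counted, so the level of Ifitm2 is less certain than that of Ifitm6, as are those of Ifitm1 and Ifitm3 where reads were short.

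Library totals ranged from 5890406 to 16659154 counts, of which the single gene Gm42418 took 14.8% to 48.9%. Thinned to 4151079 counts, BMDM 4 and BMDM 5 showed 13343 and 14536 genes with a count against 17336 to 21916 in the other libraries. Of the markers of the labels, Sall1, a transcription factor of microglia, stood at 49.5 to 98.8 CPM (counts scaled for library size) in microglia and 1.66 to 7.02 CPM in BMDM, and Itga4, which encodes CD49d, at 7.10 to 17.5 CPM in microglia and 48.6 to 97.2 CPM in BMDM. Ly6c2, an Ly6C gene, stood at 61.1 to 390.9 CPM in BMDM and 1.45 to 9.10 CPM in microglia, although both sorts are labelled Ly6C low or negative. Over all 16467 genes tested by edgeR (quasi-likelihood, Benjamini-Hochberg adjustment, threshold 0.05), 183 genes were higher and 134 lower in BMDM. Intervals of single values cover counting error only, and fewer cells of a type and less RNA per cell cannot be told apart in such samples.

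Ifitm3, the member best known for blocking influenza viruses, carried most of the family's transcripts in both groups. Its CPM was 211.8, 146.3 and 178.7 in microglia 1 to 3. In BMDM 1 to 5 it was 870.8, 758.0, 1998, 1575 and 171.4. Of the BMDM libraries, 4 lay above all microglia, while BMDM 5 lay inside the microglia range, so the groups overlap. Mean Ifitm3 CPM was 1075 ± 717.6 (SD, n = 5) in BMDM and 178.9 ± 32.8 (SD, n = 3) in microglia, a fitted log2 fold change of 2.59 ± 0.65 (SE). In BMDM 1 to 3 alone the mean was 1209 ± 685.5 CPM (SD, n = 3). Highest and lowest library differed 11.7-fold within BMDM and 1.45-fold within microglia. By mean CPM, Ifitm3 ranked 58th among all genes in BMDM and 536th in microglia.

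**Figure D1:**
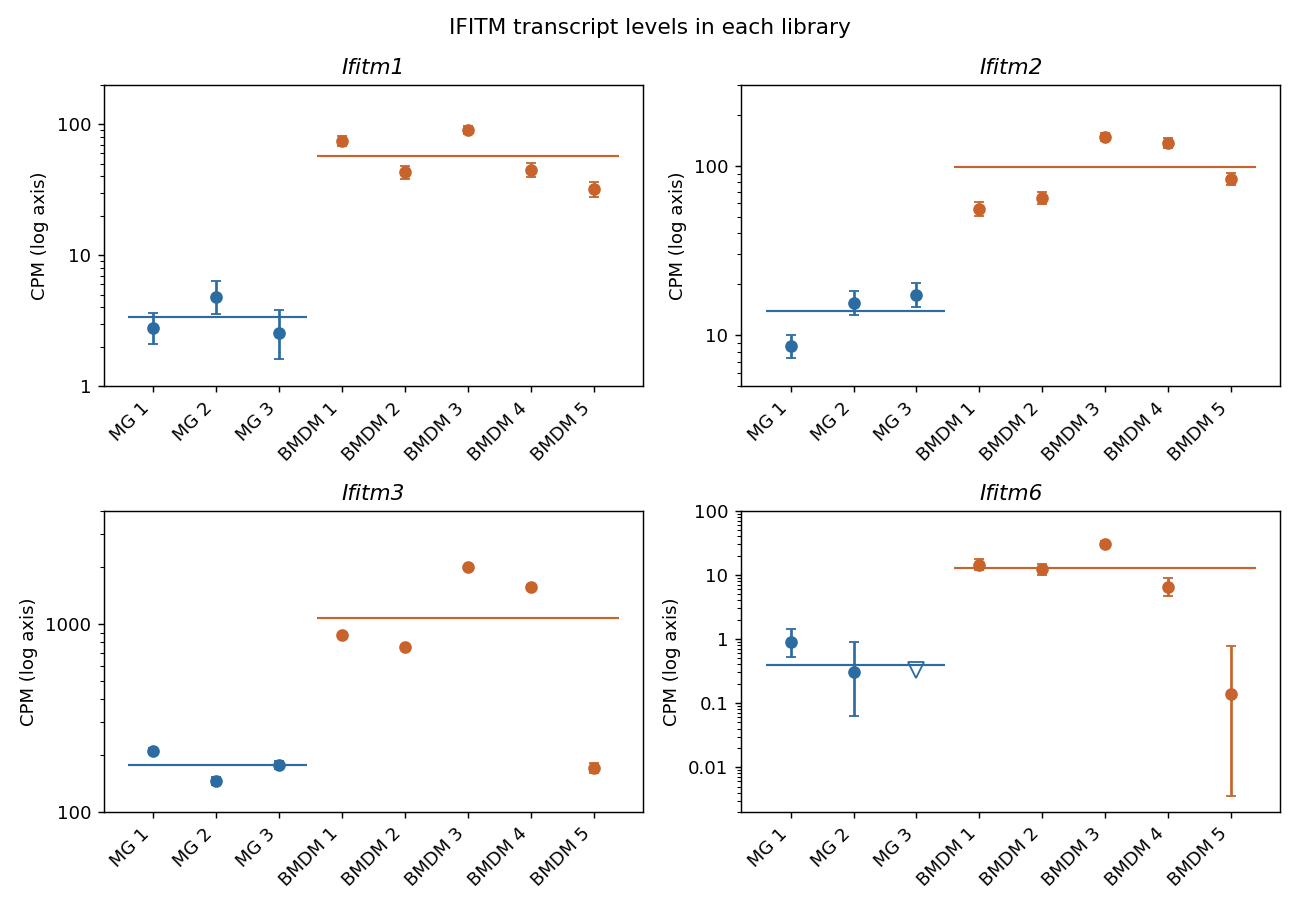
CPM (log axis, a different range in each panel) of the 4 IFITM genes in each microglia (MG, blue) and BMDM (orange) library; bars are exact Poisson 95% intervals for counting error, lines are group means, and the open triangle stands at 3 counts for the library with 0. Ifitm1 and Ifitm2 separate the groups, whereas Ifitm3 and Ifitm6 in BMDM 5 (171.4 and 0.138 CPM) lie inside the microglia range.

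Ifitm2, an endosomal relative of Ifitm3, stood at 8.62, 15.5 and 17.4 CPM in microglia 1 to 3. In BMDM 1 to 5 it stood at 55.8, 64.7, 148.8, 136.7 and 83.8 CPM. All BMDM libraries lay above all microglia libraries, the lowest BMDM value being 3.22 times the highest microglia value, and BMDM 5 was the middle BMDM library. Mean Ifitm2 CPM was 98.0 ± 42.4 (SD, n = 5) in BMDM and 13.8 ± 4.60 (SD, n = 3) in microglia, and the fitted difference was 2.83 ± 0.46 (SE) on the log2 scale, or 7.10-fold.

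Ifitm1, the cell-surface member, was scarce in microglia, at 2.79, 4.83 and 2.56 CPM (53, 48 and 23 counts). In BMDM 1 to 5 it was 74.8, 43.0, 91.3, 44.7 and 31.9 CPM. The groups did not overlap, and BMDM 5, the lowest of its group, was still 6.61 times the highest microglia library. Mean Ifitm1 CPM was 57.2 ± 24.9 (SD, n = 5) against 3.39 ± 1.25 (SD, n = 3), a log2 fold change of 4.07 ± 0.50 (SE), or 16.8-fold. Together with Ifitm2 it was the more even pair across BMDM, with coefficients of variation of 43.5% for Ifitm1 and 43.3% for Ifitm2 against 66.8% for Ifitm3 and 88.6% for Ifitm6.

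Ifitm6, a member studied mainly in mouse, was at or near the limit of counting in microglia. Microglia 1 to 3 held 17, 3 and 0 counts, or 0.894 and 0.302 CPM in the first pair, and 3 counts in microglia 3 would be 0.334 CPM. BMDM 1 to 4 stood at 14.4, 12.2, 30.2 and 6.53 CPM, and BMDM 5 at 0.138 CPM from 1 count. BMDM 1 to 4 lay above all microglia and BMDM 5 did not, so the groups overlap. The log2 fold change of Ifitm6 was 4.86 ± 1.39 (SE), with means of 12.7 ± 11.2 CPM (SD, n = 5) in BMDM and 0.399 ± 0.455 CPM (SD, n = 3) in microglia. It was the largest fitted fold change of the 4 members and the one with the largest error.

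Of the 4 members, 2 (Ifitm1 and Ifitm2) lay past the threshold of the fit over all genes, where 1.93% of genes were called in either direction and 1.11% higher in BMDM. The same 2 did not overlap between groups, as 4.32% of all genes tested did not with BMDM higher. Nothing is read from these counts, since the contrast chose the family. Leaving out BMDM 5 put both Ifitm3 (log2 fold change 2.85) and Ifitm6 (5.14) past it, and leaving out any other single library put neither there. Without BMDM 5, 3.38% of all genes were called higher and 3.79% lower.

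The order of mean levels was the same in both groups, by CPM and by CPM per kilobase of exon. Per kilobase, Ifitm3 averaged 1585 CPM in BMDM, followed by Ifitm2 at 149.5, Ifitm1 at 52.2 and Ifitm6 at 14.0. In microglia the levels per kilobase were 263.9 for Ifitm3, 21.1 for Ifitm2, 3.10 for Ifitm1 and 0.440 for Ifitm6. The BMDM ranges of Ifitm1 and Ifitm2 in CPM overlap, and in BMDM 1 Ifitm1 was the higher, so these neighbours in the order do not stand apart there. In microglia no ranges of neighbouring members overlap. Counts of 3′ ends do not grow with transcript length, so the scale per kilobase stands beside CPM and does not replace it.

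Summed over the 4 members, IFITM transcripts made up 167.0 to 224.1 CPM in microglia, 877.8 to 2268 CPM in BMDM 1 to 4 and 287.2 CPM in BMDM 5. Ifitm3 took 94.5%, 87.7% and 90.0% of the summed counts in microglia 1 to 3. It took 85.7%, 86.4%, 88.1% and 89.3% in BMDM 1 to 4, and 59.7% (Wilson 95% interval 57.6% to 61.8%) in BMDM 5. The share of Ifitm3 thus lay within 10 percentage points in 7 libraries and far lower in the eighth. Such shares come from within a library and do not depend on scaling.

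Ifitm2 made up 29.2% of the sum in BMDM 5 (interval 27.3% to 31.2%), 5.49% to 7.76% in BMDM 1 to 4 and 3.85% to 9.28% in microglia. For every 100 Ifitm3 counts there were 48.9 Ifitm2 counts in BMDM 5 and 4.07 to 10.6 in the other libraries. Ifitm1 made up 1.24% to 2.89% in microglia and 2.54% to 11.1% in BMDM, overlapping ranges whose upper end is again BMDM 5. Ifitm6 took 1.33% to 1.42% in BMDM 1 to 3, 0.370% in BMDM 4, 0.0481% in BMDM 5 and at most 0.399% in microglia. In microglia 3 its count of 0 allows a share of up to 0.168%, taken as 3 counts of the sum (Wilson 95% upper limit 0.215%). BMDM 5 therefore combined low Ifitm3 and Ifitm6 with Ifitm1 and Ifitm2 in the range of its group or near it. At equal depth BMDM 5 held few genes (14536), and BMDM 4, with an Ifitm3 share of 89.3%, held fewer (13343). The part of such gene numbers in the IFITM make-up of BMDM 5 was not tested.

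**Figure D2:**
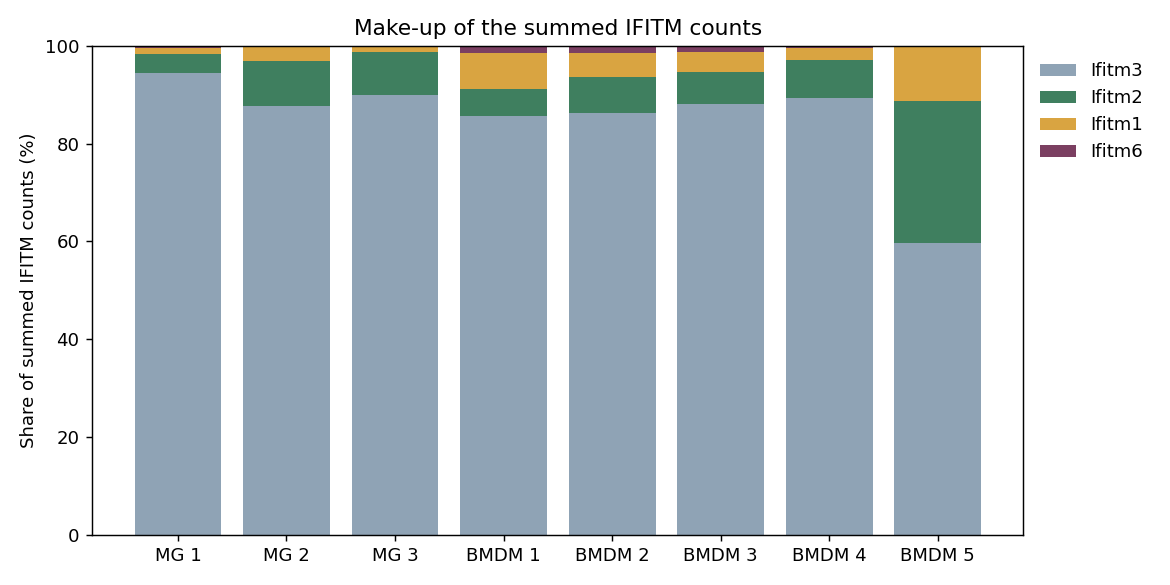
Share (%) of each member in the summed counts of the 4 IFITM genes, 1 bar per library; MG is microglia. Ifitm3 takes 85.7% or more in 7 libraries and 59.7% in BMDM 5, where Ifitm2 takes 29.2%.

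The 3 other family members in the table had low counts. Ifitm5, a bone protein gene next to Ifitm2, had 27 counts in all and was not tested. Ifitm7, a gene on chromosome 16 whose coding sequence was 89.3% identical to that of Ifitm1, stood at 3.68, 2.21 and 0.556 CPM in microglia and 6.92, 5.05, 8.12, 0 and 0 CPM in BMDM, with overlapping groups. A log2 fold change of 0.89 ± 1.58 (SE) for Ifitm7 missed the threshold (edgeR's quasi-likelihood test, adjusted p = 0.892) and was -0.83 with limma-voom. Ifitm10, farther along chromosome 7 at chr7:142325837-142373753, stood at 4.78, 6.14 and 15.9 CPM in microglia and at most 2.40 CPM in BMDM. Every microglia library was above every BMDM library, but the log2 fold change of -3.04 ± 1.24 (SE) missed the threshold (edgeR's quasi-likelihood test, adjusted p = 0.275). Of all genes tested, 13% did not overlap between groups in either direction, and 4.32% did not with BMDM higher.

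The interferon pathway was compared through lists of receptors, inhibitors, regulators, induced genes and other restriction factors, 60 genes in all. By edgeR none of the 60 was called in either direction, where 1.11% of all genes were higher and 0.814% lower, and the median log2 fold change was 0.50 against 0.08 over all genes. At an unadjusted 0.05, 12 of the 60 were higher and 1 lower, against 6.49% and 7.27% of all genes. With DESeq2, 7 of the 60 were called higher and 1 lower, against 3.47% and 1.97% of all genes. With BMDM 1 to 3 alone edgeR called 9 higher and 2 lower, against 6.35% and 8.11%. A further 20 tested genes were the other IFITM genes, proteins that modify or bind IFITM3, and gamma-secretase subunits, and the only edgeR call among all 80 came from these. The lists were chosen with earlier results of these data known. Errors after log2 fold changes are SE throughout.

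Among 10 receptors and signal carriers edgeR called none, none passed an unadjusted 0.05, DESeq2 called none, and the median log2 fold change was 0.12. Ifnar1, a chain of the type I interferon receptor, had a log2 fold change of 0.57 ± 0.40 (SE), and Ifnar2, its partner chain, -0.03 ± 0.43, whose sign turned under 9 of 17 alternatives. Stat2, a signal carrier of the type I receptor, stood at 0.64 ± 0.40 and Irf9, which completes the ISRE-binding complex, at -0.07 ± 0.35, with a sign that turned under 7 of them. The interferon gamma receptor chain Ifngr1 stood at 126.2 to 265.0 CPM in microglia, 61.2 to 97.7 CPM in BMDM 1 to 4 and 224.3 CPM in BMDM 5. The difference of -0.77 ± 0.44 missed the threshold with all libraries (edgeR, adjusted p = 0.502), and Ifngr1 was called lower with BMDM 1 to 3 alone and without BMDM 5.

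Among the 7 feedback inhibitors none was called by edgeR, 1 passed an unadjusted 0.05, and the median was 0.12. DESeq2 and the fit on BMDM 1 to 3 each called 1 of them higher, Socs1, an inhibitor of JAK kinases. Over all genes 6.49% were higher unadjusted, 3.47% with DESeq2 and 6.35% with BMDM 1 to 3. Among the 6 interferon regulatory factors none was called, 1 passed unadjusted, and the median was 0.39. That gene was Irf7, itself induced by interferon and an amplifier of type I interferon production. Irf7 stood at 46.9, 27.1 and 43.8 CPM in microglia and 144.1, 95.2, 351.4, 351.9 and 22.3 CPM in BMDM, so that BMDM 5 alone was not above microglia, as for Ifitm3. On the log2 scale Irf7 differed by 2.30 ± 0.71 (edgeR's quasi-likelihood test, adjusted p = 0.135), and Irf7 was called higher with DESeq2, with BMDM 1 to 3 alone and without BMDM 5. Irf8, a lineage factor of both cell types, stood at -0.17 ± 0.42, and at 0.10 without microglia 3, the only alternative of 17 that turned its sign.

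The 24 type I interferon-stimulated genes had 0 calls by edgeR in either direction, 7 higher and 0 lower at an unadjusted 0.05, and 2 higher with DESeq2 (Isg15 and Zbp1). Their median log2 fold change was 0.62, with 18 of 24 above 0, where 8748 of all 16467 genes tested were above 0. BMDM 1 to 3 alone gave 5 higher calls (Isg15, Oas1a, Phf11b, Rtp4 and Zbp1). Over all genes 6.49% were higher and 7.27% lower unadjusted, 3.47% were higher with DESeq2 and 6.35% with BMDM 1 to 3. Isg15, a ubiquitin-like protein, stood at 133.6, 123.7 and 83.6 CPM in microglia and 512.6, 587.7, 657.2, 283.6 and 117.6 CPM in BMDM, so BMDM 5 again lay inside the microglia range. For Isg15 the log2 fold change of 1.93 ± 0.53 missed the threshold (edgeR's quasi-likelihood test, adjusted p = 0.0865). Ifit3, an RNA-binding antiviral gene of the same list, stood at 0.26 ± 0.45, and at -0.05 without microglia 2, the only alternative of 17 that turned its sign. Mean log2 CPM over the 24 genes was 5.22 to 5.55 in microglia and 5.05 to 6.35 in BMDM, with BMDM 5 lowest and BMDM 4 highest.

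Other restriction factors against viruses showed 0 calls among 13 genes by edgeR, with 3 higher and 1 lower unadjusted and a median of 0.65. DESeq2 called Bst2, Mx1 and Samhd1 higher and Serinc3 lower. Over all genes 6.49% were higher and 7.27% lower unadjusted, and 3.47% and 1.97% with DESeq2. Bst2, known as tetherin because it ties budding virions to the cell, averaged 828.8 ± 446.0 CPM (SD, n = 5) in BMDM and 332.1 ± 31.7 CPM (SD, n = 3) in microglia. Its log2 fold change of 1.32 ± 0.48 missed the threshold (edgeR's quasi-likelihood test, adjusted p = 0.206). Ly6e, a surface protein that limits coronavirus entry, stood at 0.94 ± 0.54.

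**Figure D3:**
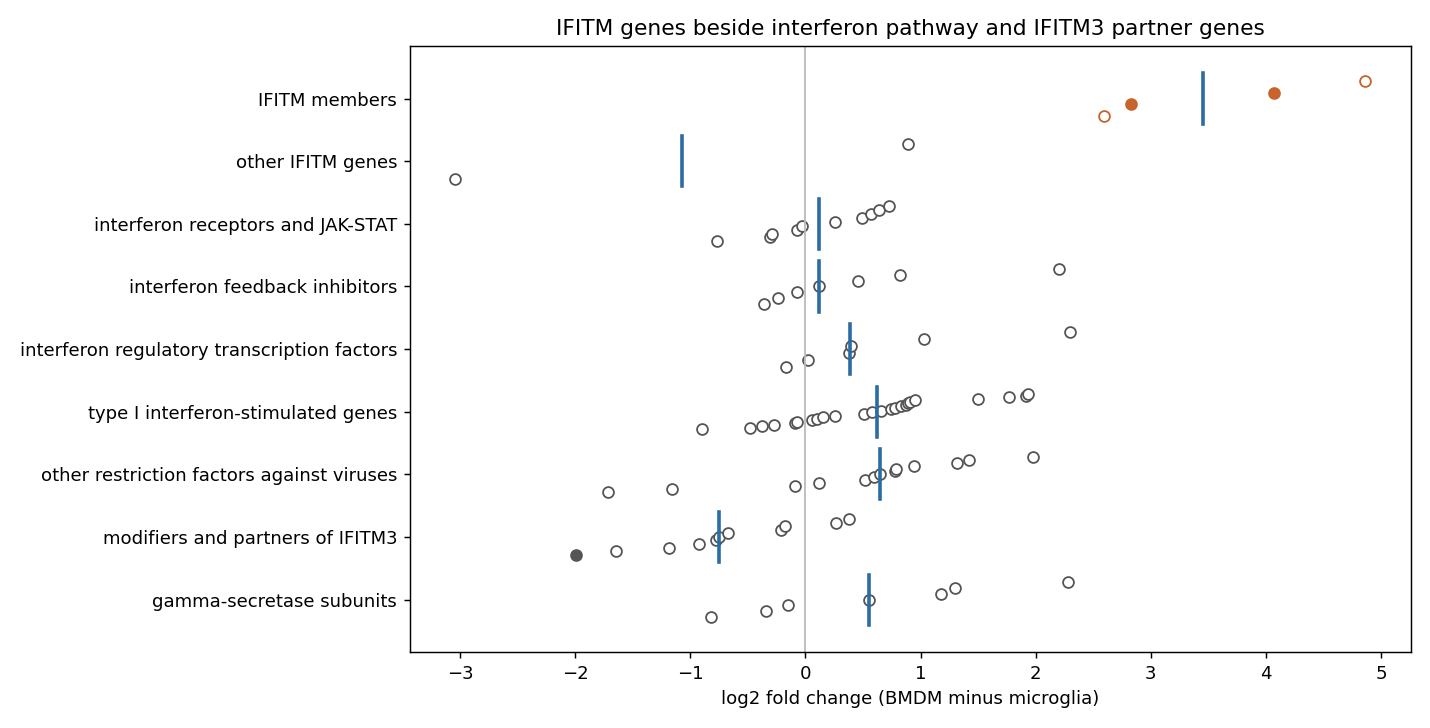
Log2 fold change (BMDM minus microglia) of the 4 IFITM members (orange) and of the tested genes of each list (grey), 1 point per gene; filled points are past the adjusted threshold of 0.05 and vertical lines are list medians. The members lie between 2.59 and 4.86, to the right of every gene of the other lists.

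Proteins that modify or bind IFITM3, known mostly from the human protein, had mostly negative fold changes, in 9 of 11 genes. Among them 1 was lower in BMDM, 4 were lower at an unadjusted 0.05, none was higher, and the median log2 fold change was -0.75. Over all genes 0.814% were called lower by edgeR and 7.27% were lower unadjusted, and 8748 of 16467 had a positive fold change. The called gene was Cd81, a tetraspanin and partner of IFITM proteins. It stood at 383.5, 251.3 and 467.5 CPM in microglia and 69.9, 121.5, 143.1, 103.5 and 23.2 CPM in BMDM, with no overlap. Of all genes tested, 13% did not overlap between groups in either direction, and 4.32% did not with BMDM higher. Cd81 fell by 1.99 ± 0.48 on the log2 scale (edgeR's quasi-likelihood test, adjusted p = 0.0463), but the call was lost under 11 of 17 alternatives. Adjusted p for Cd81 ran from 4.535e-05 to 0.188 over the 17 alternatives by edgeR, DESeq2 or limma, and the 11 include leaving out any 1 library other than BMDM 5.

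Nedd4, a ubiquitin ligase of IFITM3, stood at 26.6 to 89.6 CPM in microglia and 13.6 to 26.1 CPM in BMDM. Its log2 fold change was -1.64 ± 0.41 (edgeR's quasi-likelihood test, adjusted p = 0.0565). Zmpste24, a protease that binds IFITM proteins, stood at -1.18 ± 0.35, the palmitoyltransferase Zdhhc20 at -0.78 ± 0.41 and the endoplasmic reticulum protein Vapa at -0.67 ± 0.41. With BMDM 1 to 3 alone all 5 named genes of this list were called lower, and with DESeq2 Cd81, Nedd4 and Zmpste24 were. Over all genes 8.11% were called lower with BMDM 1 to 3 alone and 1.97% with DESeq2. The 7 subunits of gamma-secretase, a protease complex to which IFITM3 binds, had 0 calls by edgeR, 3 higher unadjusted and a median of 0.55, and DESeq2 called Aph1c higher. Over all genes 6.49% were higher unadjusted and 3.47% with DESeq2. The subunit gene Psen2 stood at 1.18 ± 0.41.

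The neighbours of the cluster were compared to see whether the whole region differed. Within 100 kb on either side, 8 genes other than the members were tested. By edgeR none was called, 1 passed an unadjusted 0.05 and DESeq2 called 1 (Pkp3), and their median log2 fold change was 0.08, as over all genes. Of all genes 6.49% were higher unadjusted and 3.47% with DESeq2. Pgghg, next to Ifitm5, stood at -1.51 ± 1.66 with 127 counts in all. Sirt3, a mitochondrial deacetylase, stood at 1.07 ± 0.58, Psmd13, a proteasome subunit, at 0.35 ± 0.37, Ric8a at -0.31 ± 0.46, Bet1l at -0.07 ± 0.39 and Sigirr, an inhibitory receptor of the interleukin 1 family, at -1.05 ± 1.08. The pseudogene Gm15542 stood at 0.23 ± 1.23. The exception in size was Pkp3, a desmosomal protein gene at 10.4 ± 3.08 CPM (SD, n = 5) in BMDM and 0.816 ± 1.01 CPM (SD, n = 3) in microglia. Its log2 fold change was 3.59 ± 1.11 and missed the threshold (edgeR's quasi-likelihood test, adjusted p = 0.13).

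**Figure D4:**
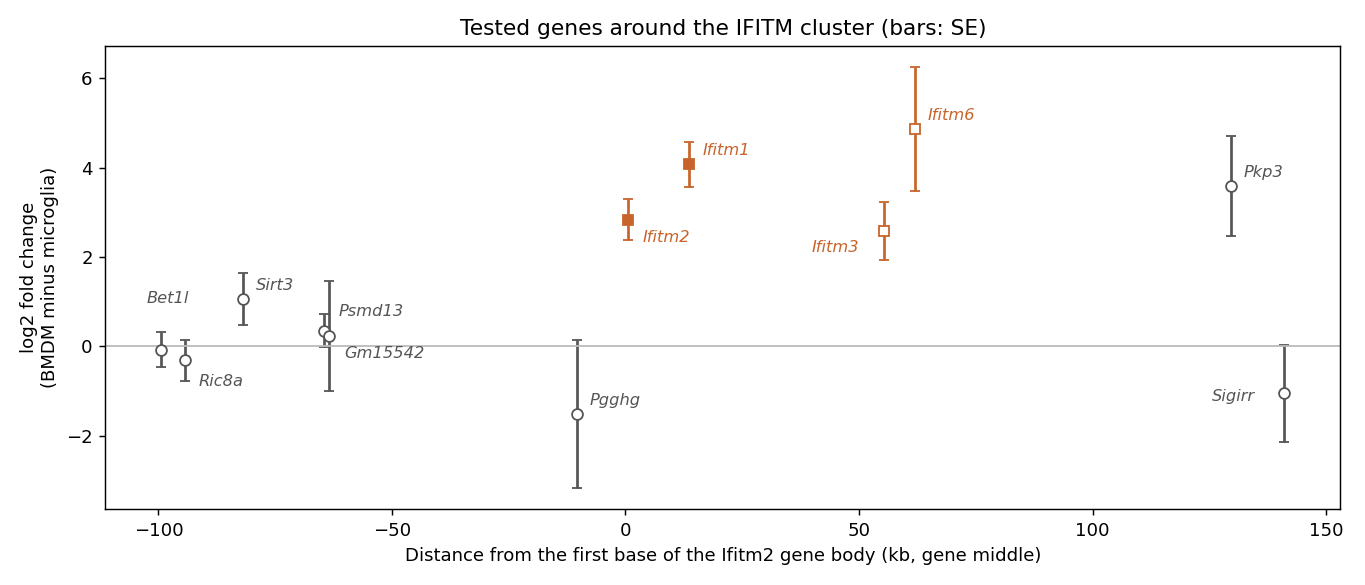
Log2 fold change (BMDM minus microglia, bars SE) of each tested gene within 100 kb of the cluster against the distance of its middle from the first base of Ifitm2 (kb); squares are members, circles are other genes, and filled symbols are past the adjusted threshold of 0.05. The members lie at 2.59 or more and the 8 other genes at -1.51 to 3.59.

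Genes with the most similar pattern differed between members. Likeness was the root mean square difference of mean-centred log2 CPM over the 8 libraries, among 4888 genes with at least 20 CPM on average, and the points share the same libraries and depths. Nearest to Ifitm3 was Il2rg, the common gamma chain of cytokine receptors, at a difference of 0.16, followed by Prdx5 (0.33), Irf7 (0.33), Gadd45g (0.38) and the ferritin heavy chain gene Fth1 (0.39). The median gene differed from Ifitm3 by 1.62. Nearest to Ifitm2 were Cyp4f18 (0.33), the interleukin 1 receptor antagonist gene Il1rn (0.35), Msrb1 (0.35), Il1b (0.35) and St8sia4 (0.36), against a median of 1.57.

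Nearest to Ifitm1 were the chemokine gene Cxcl2 (0.39), Crip1 (0.45), Emilin2 (0.47), Tgfbi (0.48) and Plbd1 (0.53), against a median of 2.12. For Ifitm6 the nearest genes were less alike, from Pla2g16 (1.01) and the lysozyme gene Lyz2 (1.02) through Crlf2 (1.02) and Bcl2a1b (1.08) to the class II gene H2-Eb1 (1.11). Among the members themselves the closest pair was Ifitm1 and Ifitm2, at 0.86, and the farthest Ifitm2 and Ifitm6, at 2.02. No member was among the 5 genes nearest to another. These distances describe the 8 libraries and carry no test.

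Markers of other cells that the sort could hold moved with the members in part. Monocyte markers summed to 40.3 to 44.1 CPM in microglia and 333.6 to 1068 CPM in BMDM, with 6 of 7 genes higher and the lowest sum in BMDM 5. Microglia markers summed to 2668 to 7961 CPM in microglia and 794.8 to 1830 CPM in BMDM, with 7 of 10 lower. Over all genes, edgeR called 1.11% higher and 0.814% lower. Of the sort-gate genes 2 of 5 tested were higher, Itga4 and Ly6c2, and Ly6g, the defining neutrophil antigen, had 2 counts over all libraries. The whole neutrophil list summed to 34.3 to 41.1 CPM in microglia and 41.6 to 106.0 CPM in BMDM, with 1 of 7 tested genes higher. Unadjusted and by DESeq2, 3 of its genes were higher and 1 lower. Within it Csf3r stood at 24.5 to 34.4 CPM in microglia and 5.33 to 16.0 CPM in BMDM. S100a8 went the other way, at 0.334 to 2.84 CPM in microglia and 6.63 to 55.3 CPM in BMDM. Of all genes 6.49% were higher and 7.27% lower unadjusted, and 3.47% and 1.97% by DESeq2.

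T cell markers also summed higher in every BMDM library. They summed to 16.1 to 23.8 CPM in microglia and 49.4 to 131.7 CPM in BMDM, with 0 of 7 called by edgeR, 6 higher at an unadjusted 0.05 and 5 higher by DESeq2. Over all genes, 1.11% were higher and 0.814% lower by edgeR, 6.49% and 7.27% unadjusted, and 3.47% and 1.97% by DESeq2. NK cell markers summed to 1.78 to 9.56 and 5.11 to 166.0 CPM, with 0 of 4 called by edgeR, 2 higher unadjusted and 1 higher by DESeq2. B cell markers summed to 0.704 to 8.46 and 2.71 to 8.24 CPM with 0 of 1 called by edgeR, unadjusted or by DESeq2, and dendritic cell markers to 1.74 to 4.53 and 2.90 to 69.5 CPM with 1 of 5 higher. Endothelial markers summed to 123.9 to 142.4 CPM in microglia and 304.0 to 748.6 CPM in BMDM with 1 of 9 higher, most of it from Ly6a. Within that list Pecam1 stood at 5.56 to 7.94 CPM in microglia and 3.43 to 31.5 CPM in BMDM, Flt1 at 5.79 to 23.7 and 12.2 to 40.9 CPM, and Cdh5 at 0.111 to 1.53 and 0 to 3.89 CPM, and Tek had 18 counts in all, none in BMDM. Pericyte and fibroblast markers summed to 7.90 to 36.0 and 21.4 to 28.8 CPM with 0 of 5 called by edgeR, unadjusted or by DESeq2, and glial or tumor cell markers to 213.1 to 333.2 and 29.1 to 124.9 CPM with 1 of 6 lower. The part of these cells in the IFITM levels was not tested.

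**Figure D5:**
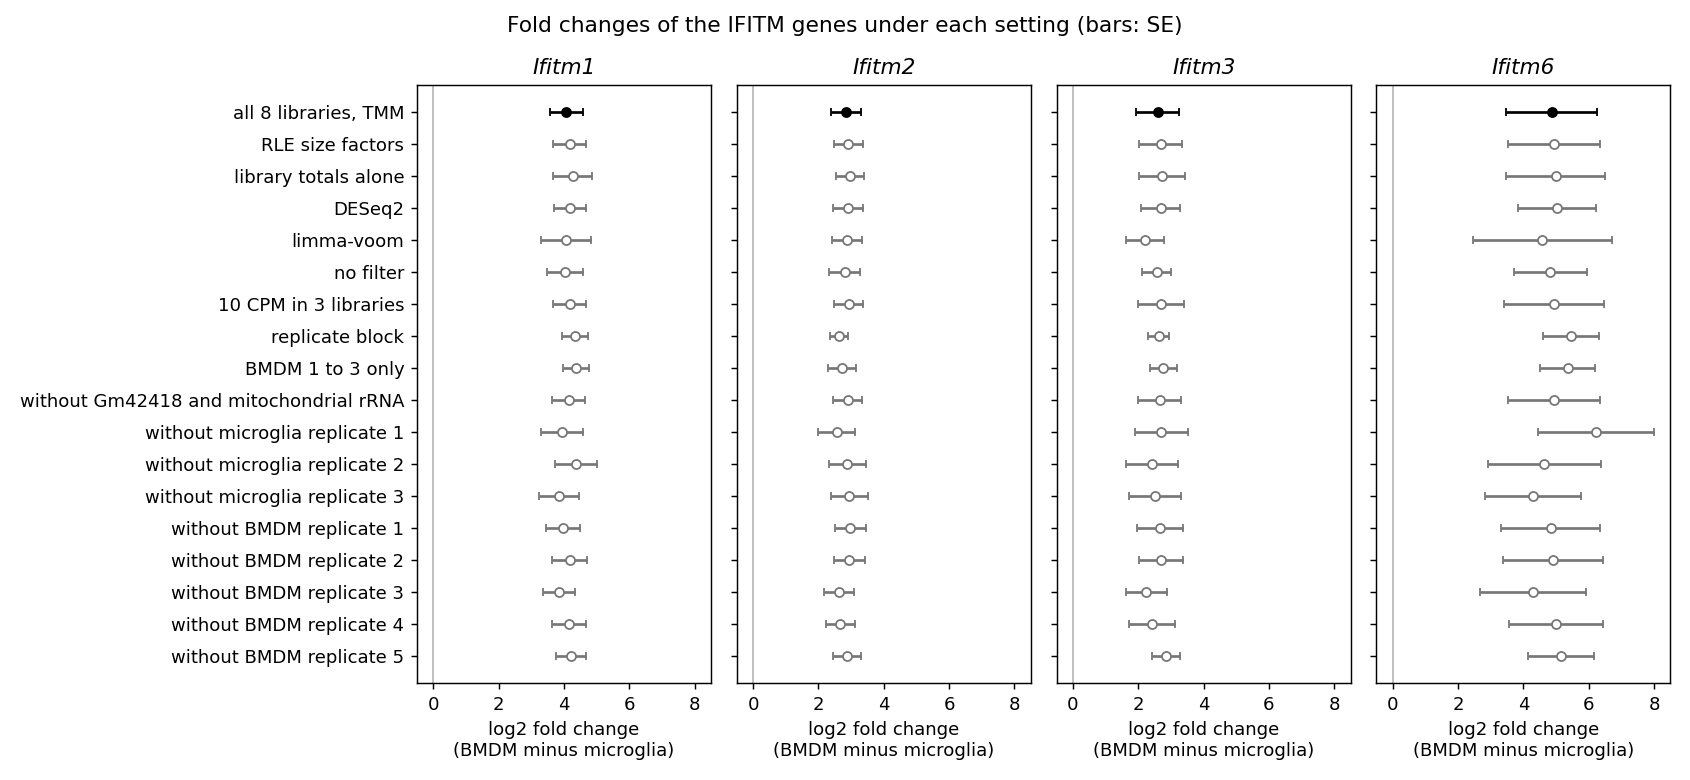
Log2 fold change (BMDM minus microglia, bars SE) of each IFITM member with all 8 libraries (filled) and under each of 17 alternatives (open). All values lie above 0, between 3.85 and 4.38 for Ifitm1, 2.56 and 2.98 for Ifitm2, 2.20 and 2.85 for Ifitm3, and 4.29 and 6.21 for Ifitm6.

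The sign of each member's fold change held under all 17 alternatives, which is fixed in part by the choice of the family. The range over them was narrowest for Ifitm2, from 2.56 to 2.98, and widest for Ifitm6, from 4.29 to 6.21. Ifitm1 ran from 3.85 to 4.38 and Ifitm3 from 2.20 to 2.85.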

How the data were processed

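RNA from sorted cells was read by QuantSeq 3′ FWD as single 75-base reads, per the labels' protocols. The authors deposited raw read counts per gene in 1 table, and the mm10 build, STAR, featureCounts, cutadapt, FastQC and DESeq2 are listed in the submitters' processing notes. Versions, strand setting and treatment of multiply matching reads are not given in the sources used here. All 55450 identifiers (100%) were found in GENCODE M21.

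The deposited counts were fitted with edgeR 4.0.16 in R 4.3.3 (filterByExpr with minimum count 10 and minimum total 15, TMM, robust quasi-likelihood test, BMDM minus microglia over 8 libraries, Benjamini-Hochberg over 16467 genes, threshold 0.05). CPM values are TMM-scaled, and log2 CPM used a prior count of 2. The procedure was tested on simulated data. DESeq2 1.42.0 and limma 3.58.1 voom were alternatives, beside other scalings and filters, a replicate block, BMDM 1 to 3 alone and leaving out each library. Replicates differed by far more than sampling noise, with a lowest chi-square per degree of freedom of 19.0.

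Members and lists were chosen with earlier results of these data known. Named were the members, the other IFITM genes, up to 3 called genes per list and direction, preset pathway genes (2 of them not reported here), the 5 nearest genes by pattern and the tested neighbours. Genes named only as called under an alternative (Socs1, Samhd1, Aph1c, Mx1, Serinc3, Oas1a, Phf11b, Rtp4 and Zbp1) were chosen after their values were seen.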

Additional observations from a re-analysis of the deposited data

Results flagged for a closer look

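A library far from the others of its group was looked for in 27 quantities over the 5 BMDM libraries. Chance alone flags about 1 in 20 groups. Each of the 3 cases found was BMDM 5, set apart by its gap to the nearest other library relative to the range of the group. The share of Ifitm2 in the summed IFITM counts was 29.2% there, against 5.49% to 7.76% in BMDM 1 to 4. The share of Ifitm3 was 59.7%, against 85.7% to 89.3%. Both are shares of 1 sum, so these cases are not separate. Ifngr1, the interferon gamma receptor chain, stood at 224.3 CPM against 61.2 to 97.7 CPM in BMDM 1 to 4, and within the microglia range.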

How the results depend on the processing

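The fold changes of Ifitm1 and Ifitm2 stayed past the threshold under all 17 alternatives, and no value past the threshold changed sign. Uncalled values near 0 did: Ifnar2 (9 of 17 alternatives), Irf9 (7), Irf8 (1) and Ifit3 (1). Ifitm7 missed the threshold at 0.89 ± 1.58 (SE) and turned to -0.83 with limma-voom, 1 of its 16 alternatives. Ifitm3 (2.59 on the log2 scale) moved past it with RLE factors (2.68), DESeq2 (2.68), no filter (2.56) and BMDM 1 to 3 (2.77), and ranged from 2.25 to 2.85 with 1 library left out. Ifitm6 (4.86) moved past it with DESeq2 (5.02), no filter (4.82) and BMDM 1 to 3 (5.35), and ranged from 4.29 to 6.21. Over all genes, 183 higher calls became 630 with DESeq2, 403 with no filter and 1028 with BMDM 1 to 3. Leaving out 1 library gave 58 (microglia 3), 61 (microglia 1), 91 (microglia 2), 109 (BMDM 3) and 536 (BMDM 5). The 134 lower calls became 357 with DESeq2, 250 with limma-voom, 318 with no filter and 1312 with BMDM 1 to 3, and 46 (microglia 3), 57 (microglia 1), 73 (microglia 2), 75 (BMDM 1), 77 (BMDM 2), 69 (BMDM 3) and 602 (BMDM 5) with 1 library left out. Of the 80 pathway genes, 0 higher became 1 with library totals alone, 8 with DESeq2, 7 with no filter, 1 with a minimum of 10 CPM and 10 with BMDM 1 to 3, and 0 to 8 with 1 library left out. The 1 lower became 0 with RLE factors, library totals alone, a minimum of 10 CPM or without Gm42418 and mitochondrial rRNA, 4 with DESeq2, 2 with no filter and 8 with BMDM 1 to 3, and 0 to 5 with 1 library left out. The cause was not tested.

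The sources used here do not say whether replicate numbers pair the libraries. Correlations of deviations for same-numbered libraries were 0.28, 0.13 and -0.01, and not every library correlated best with its own number. Against BMDM 1 to 3 alone, each microglia library did correlate best with its own number. These values cannot decide on pairing, since deviations from means of few libraries constrain each other. The replicate block gave 2.63 for Ifitm3 and 5.46 for Ifitm6, both past the threshold, 1449 higher and 1774 lower genes, and 11 higher and 9 lower pathway genes. With a prior count of 0.5 the nearest genes of Ifitm6 shared 2 of 5 with those given. Depth limits Ifitm6 in microglia, which rests on 17, 3 and 0 counts.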
